A study of Mus musculus with 2 samples.

Results

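The genes described here build or regulate the actin cytoskeleton, or are known targets and partners of the transcription factors SRF and YAP. They were listed by name as 40 mouse genes, of 32989 genes on the array, and were sorted by role into 10 smooth muscle and muscle actin genes, 18 genes of the general actin cytoskeleton, Srf itself, 7 targets of YAP and TEAD, and 4 genes of the YAP pathway. The members were chosen by gene function and, in part, by the mutant over wildtype ratios of these same arrays, which were known when the list was made. The counts and medians below therefore describe the genes and are no evidence that the list as a whole differed. All 40 had at least 1 probe, 66 probes in all. A gene counts as measured where, on both arrays, a probe stood well above background in the RNA of 1 genotype or more, and 39 were. The exception was Actc1, the actin of cardiac muscle, whose spot was flagged as uneven on replicate 1.

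RNA came from the posterior part of mouse embryos with 13 somites, cut at the level of the last somite boundary. One pool of 7 embryos carried 1 functional allele of Cdx2 and no functional Cdx4 (Cdx2+/-Cdx4-/-, called mutant here), and the other pool of 7 was wildtype. Cdx2 and Cdx4 are homeobox transcription factors of the posterior axis. The sources used here do not give the construction of the alleles, the strain or the age in days. The pools were set against each other on dual-colour arrays in both dye orientations: the mutant RNA was labelled with Cy5 on replicate 1 and with Cy3 on replicate 2. The arrays repeat 1 comparison of 1 pool per genotype. Errors are therefore the SD of 2 arrays, which is technical, and no test between genotypes is given.

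From 77.4% to 82.5% of the 41174 gene spots, depending on array and dye, stood well above background, which left 26063 genes measured. Cdx4 had a log2 mutant over wildtype ratio of -2.52 ± 0.12, and Cdx2 had -0.05 ± 0.09. The sources used here do not say whether their probes lie in the altered part of each locus. The median log2 ratio of all measured genes was 0.00, and the SD between arrays, pooled over those genes, was 0.19.

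SRF, the serum response factor, binds CArG boxes, short elements with CC and GG on either side of a run of A and T, in front of many actin and smooth muscle genes. Its myocardin-related cofactors are held by free actin monomers and act in the nucleus when actin is assembled into filaments. YAP is a coactivator without a DNA-binding domain of its own, which binds DNA through TEAD factors and is kept out of the nucleus by the LATS kinases of the Hippo pathway. Both systems respond to tension and cell shape, and in the embryo the smooth muscle genes mark the first muscle layer of vessels and gut and are also transcribed for a time in heart and somites.

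A gene was called lower or higher in the mutant when its log2 ratio was at least 0.59, which is 1.5-fold, in the same direction on each array. By this rule 5 of the 39 measured genes fell and 0 rose. Over all measured genes 60 were lower, which is 0.23%, and 55 were higher, which is 0.211%. The genes that fell were Coro2a, Ankrd1, Actg2, Cnn1 and Lima1. Of the 39 genes, 24 lay below 0 on both arrays and 4 above, while 11 had opposite signs. Across all genes, 24.4% lay below 0 on both arrays and 23.3% above. The median log2 ratio of the 39 genes was -0.11, with -0.14 on replicate 1 and -0.086 on replicate 2. The ratios of these genes chose the list in part, so the shares are given side by side and nothing is read from them. In pooled tissue, fewer cells of a type and less RNA per cell cannot be told apart.

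**Figure D1:**
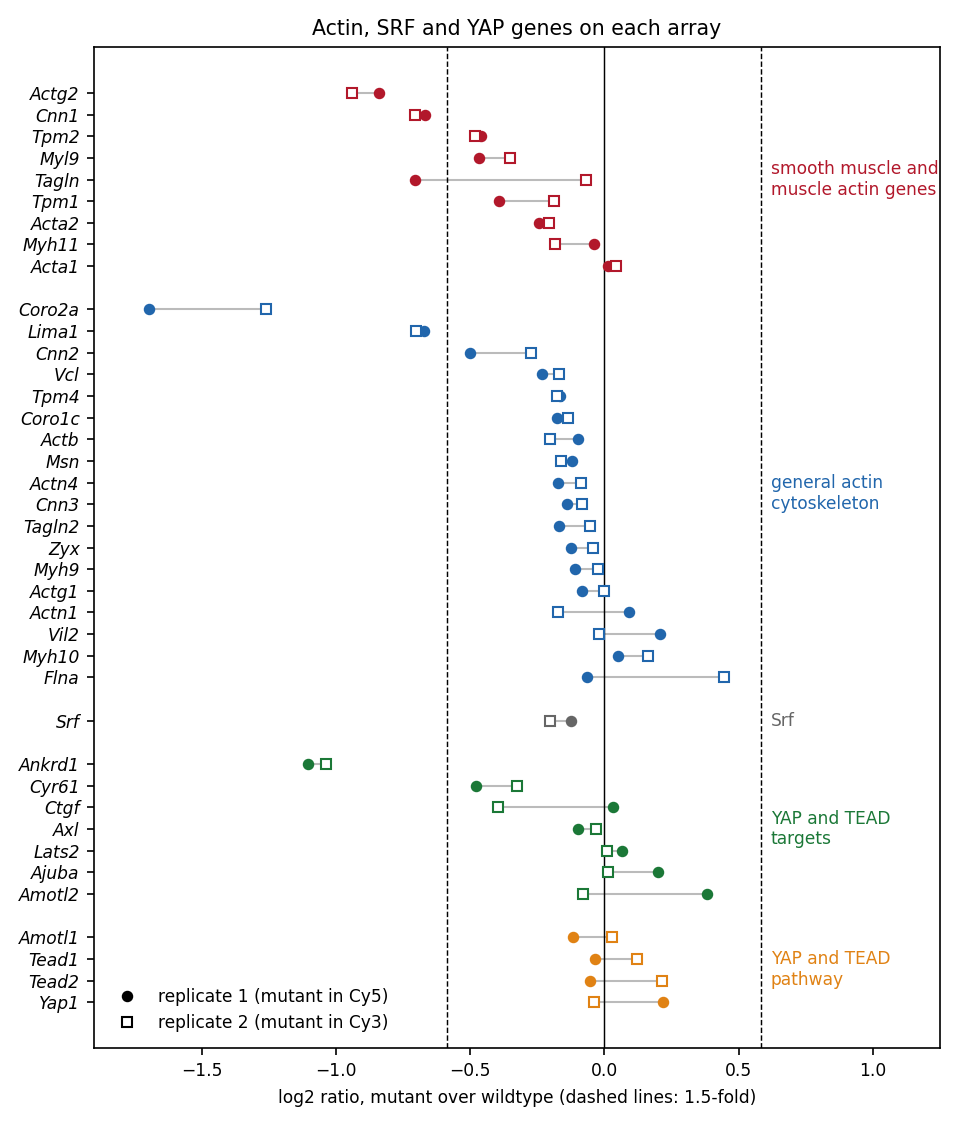
Log2 mutant over wildtype ratio of each measured gene on replicate 1 (filled circles) and replicate 2 (open squares), by role, with dashed lines at 1.5-fold. Coro2a, Ankrd1, Actg2, Cnn1 and Lima1 lie left of the dashed line on both arrays, and Tagln only on replicate 1; Actb and Actg1 are drawn from an unsaturated probe.

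Coro2a encodes a coronin, one of a family of WD-repeat proteins that bind actin filaments. Its normalized log2 signals in the mutant pool were 7.25 on replicate 1 and 7.67 on replicate 2, against 8.95 and 8.93 in the wildtype pool. Both mutant values lay under both wildtype values. The log2 ratios of -1.70 and -1.26 gave a mean of -1.48 ± 0.31, or 2.79-fold lower. Coro2a was the third lowest of all measured genes, and its ratio was also the one of the 5 genes that differed most between the arrays. Its only probe lies at chr4:45846958-45847017 in the coordinates of the files, which name no genome build.

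Ankrd1 encodes an ankyrin repeat cofactor of transcription that is abundant in cardiac muscle and is a standard YAP target. Its signals were 7.65 and 7.83 in the mutant pool and 8.75 and 8.87 in the wildtype pool. The ratios of -1.10 and -1.04 gave a mean of -1.07 ± 0.05, or 2.10-fold lower. The groups did not overlap. A second, dimmer probe of the gene, well above background in the mutant pool on 1 array only, gave -0.67. The brighter probe lies at chr19:35342947-35343006.

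Actg2, the gamma actin of enteric smooth muscle, had signals of 8.17 and 8.23 in the mutant pool and 9.01 and 9.17 in the wildtype pool, a mean ratio of -0.89 ± 0.07, or 1.85-fold lower. Its second probe was dim, well above background in the mutant pool on 1 array only, and gave -0.17. The Actg2 call thus rests on the bright probe, at chr6:83764872-83764931, and was not made with the median over probes. Cnn1, the calponin of smooth muscle, which binds actin and slows the myosin motor, had 7.81 and 8.00 against 8.48 and 8.70. Lima1, a LIM protein also called EPLIN that cross-links and stabilises actin filaments, had 10.29 and 10.41 against 10.96 and 11.11. Cnn1 and Lima1 each had a mean ratio of -0.69 ± 0.02, or 1.61-fold lower, on probes at chr9:22049882-22049941 and chr15:100281185-100281244. All mutant signals of these genes lay under their wildtype signals, and a second Lima1 probe in the same gene gave -0.56. At the threshold, Cnn1 lay just inside with a smaller array ratio of 0.67 in size, and Tpm2 just outside with 0.46.

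**Figure D2:**
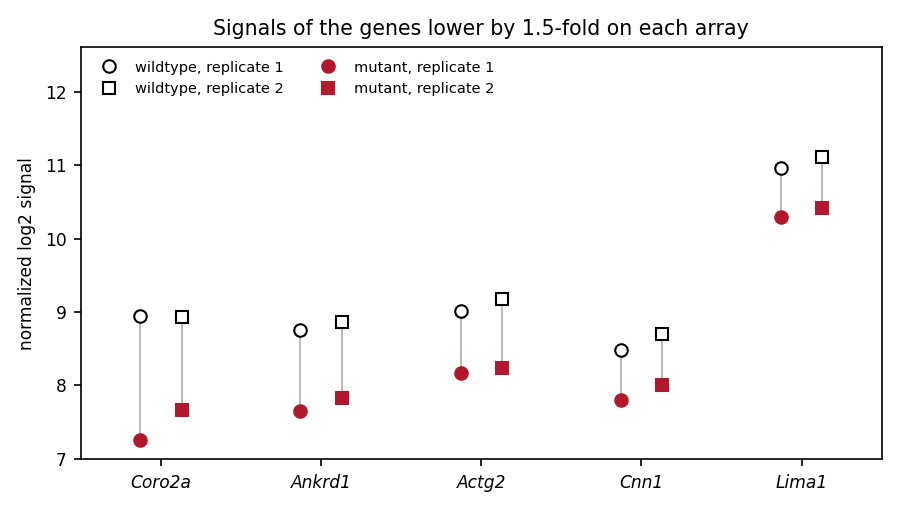
Normalized log2 signals of the genes lower by 1.5-fold on each array, wildtype open and mutant filled, circles for replicate 1 and squares for replicate 2, with a line joining the pools on an array. For each gene both mutant signals lie under both wildtype signals; signals of different genes come from different probes and are not comparable.

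Some calls depended on the normalization. With each array centred on its median in place of the intensity-dependent loess curve, 2 of the 5 genes remained past the rule, Ankrd1 and Coro2a. Actg2 then had -0.46 on replicate 1 and -1.45 on replicate 2, Cnn1 had -0.34 and -1.17, and Lima1 had -0.19 and -1.35. Their mean ratios moved less, to -0.95, -0.75 and -0.77. Of the 39 genes, 11 then lay below 0 on both arrays and 0 above, and their median was -0.21. Of all 26063 measured genes, 2220 then lay below 0 on both arrays and 2050 above. Without background subtraction Cnn1 had -0.58 and -0.62, and 4 genes remained. At 2-fold on each array the same 2 genes as with median centring were left.

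**Figure D3:**
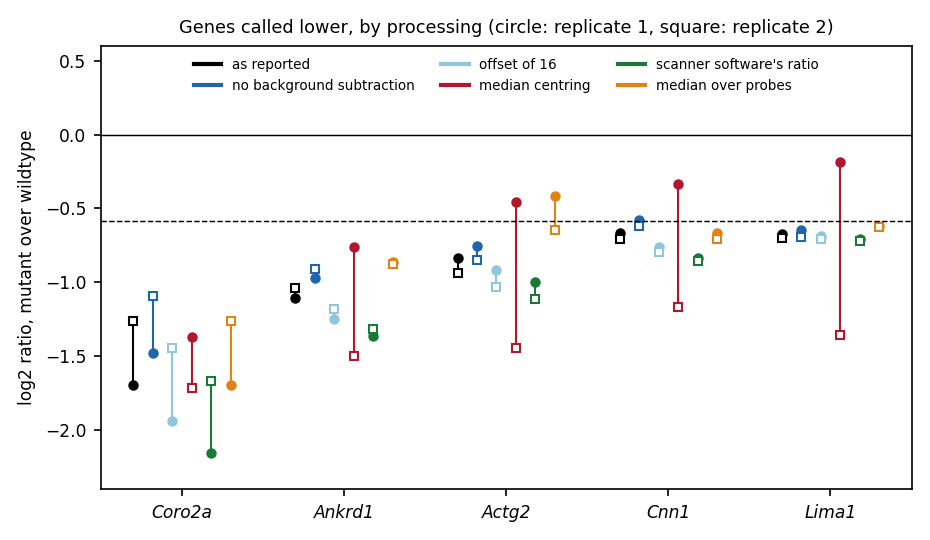
Log2 ratio on replicate 1 (circle) and replicate 2 (square) for the genes called lower under each processing, with the dashed line at 1.5-fold. Median centring, in red, spreads the arrays apart for Actg2, Cnn1 and Lima1, whose replicate 1 values then lie above the dashed line, and every value drawn is below 0.

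Sequences upstream of these genes were read from a RefSeq table of promoter windows on GRCm38.p6, each 250 bases before to 50 bases after a transcription start. Windows were found for 34 of the 40 genes. They were searched on both strands for a CArG box and for the TEAD motif GGAATG, which reads CATTCC on the other strand. A CArG box was taken as CC, 6 bases of A or T, and GG, without mismatch. Near matches were not counted, so windows that hold only such matches, among them those of Acta2 and Tpm1, stand among those without a box. No CArG match overlapped a TEAD match. A CArG box was present for 8 of 34 genes (23.5%), against 1.81% of 27025 genes with a window and 1.63% of all 32851 windows. It was present for 3 of 7 smooth muscle and muscle actin genes, 4 of 17 general actin genes and 0 of 6 YAP targets. The TEAD motif was present for 16 of 34 genes (47.1%), against 16.6% of genes and 14.7% of windows, and for 6 of 6 YAP targets. Known SRF and TEAD targets were put on the list, so these shares describe it. The 250 bases before the start are given for 4 of the genes that fell and for Srf, because they differ in the motifs they hold. Each runs 5′ to 3′ on the strand of its gene, with CArG boxes and TEAD motifs in capitals. Ankrd1 (chr19:36119845-36120094, minus strand) held TEAD motifs that begin 210 and 123 bases before the start, and no CArG box.
Ankrd1: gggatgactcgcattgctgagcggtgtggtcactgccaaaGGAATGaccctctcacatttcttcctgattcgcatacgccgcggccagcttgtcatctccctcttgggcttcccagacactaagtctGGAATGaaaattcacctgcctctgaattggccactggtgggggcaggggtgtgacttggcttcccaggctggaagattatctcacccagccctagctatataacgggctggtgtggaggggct
Coro2a has 2 windows in the table. The one at chr4:46566441-46566690, minus strand, held a TEAD motif 182 bases before its start, and the other held neither motif.
Coro2a: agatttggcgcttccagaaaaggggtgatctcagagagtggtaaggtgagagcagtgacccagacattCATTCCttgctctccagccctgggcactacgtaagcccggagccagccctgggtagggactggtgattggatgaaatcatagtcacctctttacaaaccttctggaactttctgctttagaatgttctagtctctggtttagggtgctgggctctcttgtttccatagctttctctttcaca
Lima1 (chr15:99820150-99820399, minus strand) held a CArG box 47 bases before the start.
Lima1: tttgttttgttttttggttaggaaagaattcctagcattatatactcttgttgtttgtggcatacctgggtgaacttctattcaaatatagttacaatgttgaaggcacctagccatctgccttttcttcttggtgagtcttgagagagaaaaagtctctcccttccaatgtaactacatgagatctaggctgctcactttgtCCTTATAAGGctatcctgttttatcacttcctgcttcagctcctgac
Cnn1 (chr9:22099003-22099252, plus strand) held neither motif in its window.
Cnn1: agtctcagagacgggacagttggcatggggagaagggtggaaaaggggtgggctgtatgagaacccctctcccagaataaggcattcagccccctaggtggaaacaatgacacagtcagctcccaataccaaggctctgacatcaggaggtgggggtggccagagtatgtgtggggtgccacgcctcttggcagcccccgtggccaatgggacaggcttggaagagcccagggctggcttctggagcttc
Srf (chr17:46556163-46556412, minus strand) held 2 CArG boxes, 82 and 62 bases before the start.
Srf: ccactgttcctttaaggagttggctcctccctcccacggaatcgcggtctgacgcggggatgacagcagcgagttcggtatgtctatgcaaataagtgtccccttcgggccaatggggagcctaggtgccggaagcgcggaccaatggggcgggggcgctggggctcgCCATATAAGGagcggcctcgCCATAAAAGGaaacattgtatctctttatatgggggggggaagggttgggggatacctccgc

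Genes that fell were found with and without each motif. The 7 measured genes with a CArG box had a median log2 ratio of -0.20, and 1 of them, Lima1, fell. The 26 with a window and no exact box had a median of -0.096, and 3 fell, Ankrd1, Coro2a and Cnn1. With the TEAD motif the median was -0.088 over 16 genes, 2 of which fell, and without it -0.14 over 17 genes, 2 of which fell. Actg2, Actb, Tagln, Myh11, Ctgf and Tead1 had no window.

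By role, the smooth muscle and muscle actin genes lay furthest below 0. Of the 9 measured, 2 fell, Actg2 and Cnn1, and 8 lay below 0 on both arrays. Their median log2 ratio was -0.39, with -0.46 on replicate 1 and -0.21 on replicate 2. Median centring gave a median of -0.48 and left 5 genes with both array ratios below 0, as it did 2220 of all 26063 genes. The gene that differed most between the arrays was Tagln, the smooth muscle protein SM22, which had -0.70 on replicate 1 and -0.07 on replicate 2 (-0.39 ± 0.45). Among the genes that did not pass the rule, Tpm2, a tropomyosin that winds along the actin filament, was the closest. It had signals of 8.62 and 8.80 in the mutant pool and 9.08 and 9.28 in the wildtype pool, a ratio of -0.47 ± 0.02, and its second probe gave -0.59. Myl9, the regulatory light chain of smooth muscle and non-muscle myosin, had 10.24 and 10.39 against 10.71 and 10.74, a ratio of -0.41 ± 0.08. For both genes the mutant signals lay under the wildtype signals. Tpm1, another tropomyosin, had -0.29 ± 0.15, and Myh11, the myosin heavy chain of mature smooth muscle, had -0.11 ± 0.10. Raw Myh11 signals of 126 to 142 lay close to the medians of 91.3 to 113 at the negative control spots, so its ratio says little.

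The 6 actin isoforms, which are nearly the same protein made in different cells, did not move alike. Actg2 fell, as given above. Acta2, the actin of vascular smooth muscle, had 10.69 and 10.42 in the mutant pool and 10.94 and 10.62 in the wildtype pool. Its ratio of -0.23 ± 0.03 was of one sign on the arrays, but the pools overlapped across them, and a dim second probe gave 0.01. Acta1, the actin of skeletal muscle, had 7.11 and 7.02 against 7.09 and 6.98, a ratio of 0.03 ± 0.02. Raw Acta1 signals were low, from 156 to 199, and ratios of dim genes are shrunk by the processing. Actc1 had a value on replicate 2 alone, where its signals of 11.69 in the mutant pool and 12.00 in the wildtype pool gave -0.31. The bright probes for the cytoplasmic actins were too bright to be read: Actb was saturated in Cy5 on both arrays, and Actg1 in both channels of both. A dimmer, unsaturated probe of Actb had 10.95 and 10.94 against 11.05 and 11.14, a ratio of -0.15 ± 0.07. That of Actg1 had 10.64 and 10.52 against 10.72 and 10.52, a ratio of -0.04 ± 0.06, smaller than its spread. In the counts of signs given earlier both genes stand among those of opposite signs, by their bright probes. The files place the Actg1 probes on chromosome 4 and RefSeq places the gene on chromosome 11, and the actin genes are close in sequence with many processed copies, so it was not tested which copies these probes read.

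Of the 18 general actin genes, 2 fell, Coro2a and Lima1, and the median was -0.11. The lowest of the others was Cnn2, a calponin of non-muscle cells, at -0.39 ± 0.16 (-0.50 and -0.27). Its signals of 10.34 and 10.39 in the mutant pool lay under those of 10.84 and 10.66 in the wildtype pool. Vinculin (Vcl), which ties actin to adhesion sites, had -0.20 ± 0.05, and Tpm4, a tropomyosin of non-muscle cells, had -0.17 ± 0.01. Both kept their pools apart. Coro1c, a second coronin, had -0.16 ± 0.03 on its brightest probe, and its dimmer probes well above background gave 0.04 and 0.11. Moesin (Msn), which links actin to the membrane, had -0.14 ± 0.03, and ezrin (listed as Vil2, now Ezr) of the same family had 0.09 ± 0.16. The ezrin mean is smaller than its spread. The cross-linkers Actn4 and Actn1 had -0.13 ± 0.06 and -0.04 ± 0.19, the latter smaller than its spread. Cnn3, a further calponin, and Tagln2, the non-muscle relative of SM22, had -0.11 ± 0.04 and -0.11 ± 0.08. Zyxin (Zyx), an adhesion protein, had -0.08 ± 0.06. The non-muscle myosin heavy chains lay on either side of 0, Myh9 at -0.07 ± 0.06 and Myh10 at 0.11 ± 0.08. Filamin A (Flna), which cross-links filaments into networks, had -0.06 on replicate 1 and 0.45 on replicate 2, a mean of 0.19 ± 0.36 that is smaller than its spread.

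Srf had signals of 10.16 and 10.20 in the mutant pool and 10.28 and 10.40 in the wildtype pool. The mutant values lay under the wildtype values, by a ratio of -0.16 ± 0.06 that did not pass the rule.

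Of the 7 YAP and TEAD targets, Ankrd1 fell and the median was -0.065, with 0.03 on replicate 1 and -0.078 on replicate 2, so the sign of the group turned between the arrays. Cyr61 (now Ccn1), a secreted matrix protein, had 8.08 and 8.23 in the mutant pool and 8.56 and 8.55 in the wildtype pool. Its pools did not overlap, and its ratio of -0.40 ± 0.11 did not pass; a second probe gave -0.14. Ctgf (now Ccn2), of the same protein family, had 0.03 on replicate 1 and -0.40 on replicate 2 (-0.18 ± 0.30). Amotl2, an angiomotin that binds YAP, had 0.38 and -0.08 (0.15 ± 0.33). These means are smaller than their spread. The receptor tyrosine kinase gene Axl had -0.07 ± 0.05, Ajuba, a LIM protein that restrains LATS, had 0.11 ± 0.13, and the kinase gene Lats2 had 0.04 ± 0.04. The accessions of the Lats2 probe also name a neighbouring gene, Xpo4. Raw Lats2 signals of 130 to 135 lay close to the medians of 91.3 to 113 at the negative control spots, so its ratio says little.

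The 4 genes of the YAP pathway had opposite signs on the arrays in each case, with a median of 0.06. Yap1 had 13.05 and 12.88 in the mutant pool and 12.83 and 12.92 in the wildtype pool, a ratio of 0.09 ± 0.18. Tead2 had 9.04 and 9.20 against 9.10 and 8.98, a ratio of 0.08 ± 0.19, on its dimmer probe, since the brighter one was flagged on replicate 2. In both genes the pools overlapped. Tead1 had 0.04 ± 0.11 and Amotl1, a second angiomotin, had -0.04 ± 0.10.

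In all, 12 of the 39 genes had both mutant signals under both wildtype signals, where 10.7% of all genes did, and 2 had both over, where 9.54% of all genes did. The 12 were Actg2, Cnn1, Myl9, Tpm2, Cnn2, Tpm4, Vcl, Lima1, Coro2a, Srf, Ankrd1 and Cyr61. The 2 were Myh10 and Lats2, the latter with signals near the negative controls. By role the 12 were 4 smooth muscle genes, 5 general actin genes, Srf and 2 YAP targets. In 14 of the 39 genes the mean ratio was smaller than its own SD between arrays, and 26 lay within 0.2 of 0. Differences between the role groups were not tested, because genes of a group are not replicates of a genotype.

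**Figure D4:**
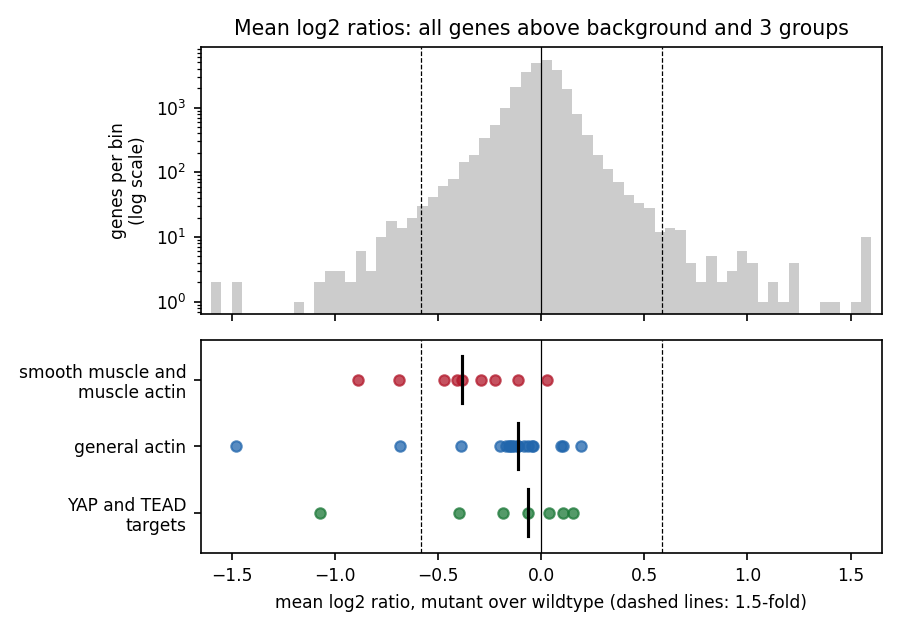
Top, mean log2 mutant over wildtype ratio of all 26063 measured genes in bins, on a log count axis, with genes beyond the axis pooled in the end bins. Bottom, each measured gene of 3 roles as a point (Actb and Actg1 from an unsaturated probe) and the median over the brightest probes as a bar, at -0.39 for smooth muscle and muscle actin, -0.11 for general actin and -0.065 for YAP and TEAD targets; dashed lines mark 1.5-fold.

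Further genes of the same pathways were read from lists that were likewise written with earlier results known. Of 14 measured smooth muscle genes outside the list above, 1 fell, Smtnl2, a smoothelin-like protein, with -0.71 ± 0.07. That call ended with median centring (-0.24 on replicate 1) and with the median over probes (a mean of -0.43). The median was -0.20, and 9 lay below 0 on both arrays. Ppp1r14a, an inhibitor of myosin phosphatase, had -0.64 ± 0.10 and missed the rule on replicate 2. Of 7 measured SRF cofactors 0 passed, with a median of -0.22, and 4 lay below 0 on both arrays and 1 above. The lowest were Fhl2, a LIM protein that binds SRF, at -0.46 ± 0.17, and Elk3, an ETS factor that binds beside SRF, at -0.42 ± 0.11. The myocardin-related Mrtfa, Mrtfb and Myocd lay near 0, at -0.10 ± 0.24, 0.08 ± 0.05 and 0.02 ± 0.09. Their raw signals were low, from 121 to 197, and those of Myocd lay close to the negative controls. The early genes of the serum response, which are SRF targets of a second kind, had a median of -0.02 over 10 genes, of which 0 passed, with Mcl1 at -0.28 ± 0.06 and Dusp1 at -0.26 ± 0.23. Raw signals of Fos, Egr2, Egr3 and Junb ran from 108 to 145, close to the negative controls, so their ratios say little. Those of Egr1 were also low, from 135 to 195. The median thus rests in large part on dim genes and does not show that the serum response was unchanged. Of 40 other actin regulators 0 passed, with a median of -0.045. Of these, 18 lay below 0 on both arrays and 7 above.

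The lists on the YAP side had medians near 0. Of 18 measured Hippo pathway genes 0 passed, with a median of -0.04, Wwc1 at 0.34 ± 0.09 and Fat4 at -0.21 ± 0.11. Of 20 other genes of published YAP signatures 1 passed, Tgfb2, a secreted growth factor, which rose with 0.64 ± 0.07, a call that ended with median centring (0.16 on replicate 2) and without background subtraction (0.50). Their median was 0.075, with 10 above 0 on both arrays and 8 below, and Nt5e, a cell surface nucleotidase, had -0.61 ± 0.08. Single genes of these signatures lay well to either side, with a median absolute log2 ratio of 0.228 against 0.0645 over all genes.

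Markers of cell types that carry these genes were read beside them. Of 18 measured endothelial markers 2 fell, Cldn5, a tight junction protein of vessels, with -1.06 ± 0.21, and Sox18, a transcription factor of vessel formation, with -0.70 ± 0.08. The Sox18 call ended with median centring (-0.27 on replicate 1) and narrowly without background subtraction (-0.58). Counted by sign, 17 of the 18 were below 0 on each array, and 11 with median centring, where 2220 of all 26063 genes were. Their median was -0.39, beside -0.39 for the smooth muscle and muscle actin genes, and Erg was not well above background. Their summed normalized signal was 10463 and 9930.5 in the mutant pool and 14684 and 13472 in the wildtype pool. The summed signal of the 9 smooth muscle and muscle actin genes was 8810.0 and 9360.6 against 12066 and 11086. A sum follows its brightest genes, here Egfl7, a secreted endothelial protein, and Tpm1. Without Egfl7 the other 17 endothelial markers summed to 4967.1 and 4815.0 against 6937.8 and 6785.3, and without Tpm1 the other 8 smooth muscle and muscle actin genes summed to 5488.9 and 6458.5 against 7703.4 and 7780.8. Each of these sums was lower in the mutant pool on both arrays. For 10 lateral plate and allantois markers, the mesoderm that gives rise to visceral smooth muscle and umbilical vessels, 0 passed and 6 lay below 0 on both arrays. Their median was -0.15 and their summed signal 7602.6 and 6788.1 against 8048.6 and 8866.5, of which Bmp4 alone gave 3952.3 and 3406.9 against 3624.5 and 4305.3, with Foxf2 at -0.58 ± 0.26 and Pitx1 at -0.48 ± 0.07. The part of these cell types in the lower smooth muscle and actin genes was not tested.

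Markers of the striated muscles, in which several of these genes are also made, had medians near 0. Of 8 measured heart markers 0 passed, with a median of -0.04, and Nppa was not well above background. Myh7, a cardiac myosin heavy chain, had 0.34 ± 0.02, above 0 on both arrays, and Tnni3, a cardiac troponin, had -0.18 ± 0.26. Of 5 measured skeletal muscle markers 0 passed, with a median of -0.03, Tnnt3 at -0.13 ± 0.08 and Chrna1 at 0.09 ± 0.03, while Myf5, Myog and Myf6 were not well above background. The raw signals of Myl7, Ryr2 and Myh3 ran from 105 to 125, close to the medians of 91.3 to 113 at the negative control spots, so their ratios say little. Those of Myl2, Tnnt2, Tnni3 and Myh7 were also low, from 127 to 180. The heart median thus rests largely on dim genes and does not show that heart RNA was unchanged. Of 9 measured paraxial mesoderm markers 5 rose, with a median of 1.18: Meox1 (2.12 ± 0.02), Ripply2 (2.11 ± 0.03), Tcf15 (2.02 ± 0.01), Foxc2 (1.35 ± 0.17) and Foxc1 (1.18 ± 0.02). The other 4 stayed near 0: Tbx6 (0.06 ± 0.16), Msgn1 (-0.12 ± 0.03), Pax3 (0.02 ± 0.04) and Mesp2 (-0.02 ± 0.02). The list was thus split, and its median, the value of Foxc1, does not stand for all of its genes. Of 6 primitive blood markers 0 passed, with a median of -0.10, Alas2 at -0.23 ± 0.09 and Hbb-y at -0.18 ± 0.21. Of 7 surface ectoderm markers 0 passed, with a median of 0.21, Wnt6 at 0.53 ± 0.02 and Krt18 at 0.28 ± 0.03. Of these markers 6 lay above 0 on both arrays and 1 below, the bright Krt8 at -0.23 ± 0.18.

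**Figure D5:**
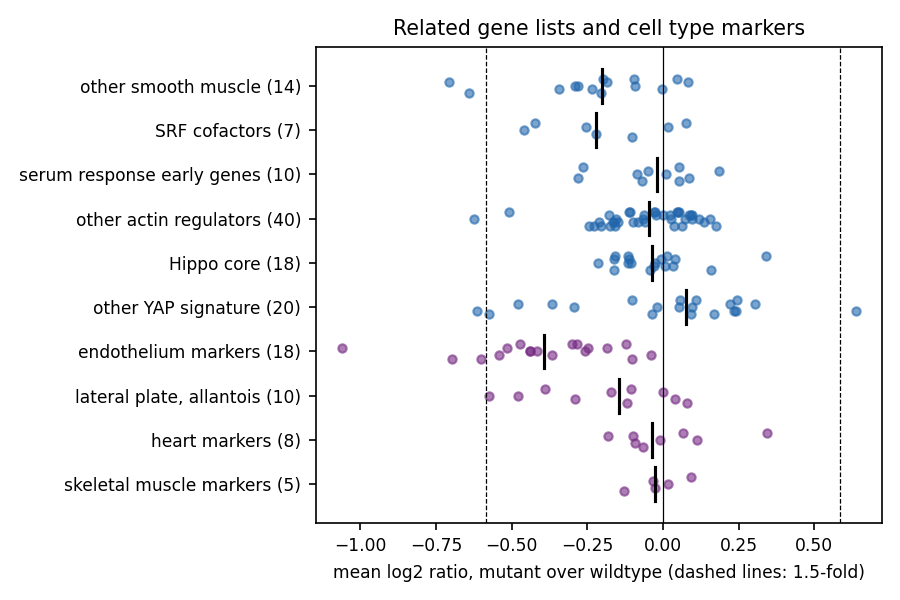
Mean log2 mutant over wildtype ratio of each measured gene in related pathway lists (blue) and cell type marker lists (purple), with the number measured in brackets, the median as a bar and dashed lines at 1.5-fold. Of the lists drawn, the endothelium markers have the lowest median, at -0.39, and those of the Hippo pathway, heart and skeletal muscle have medians around 0. Not drawn are the markers of paraxial mesoderm (median 1.18), surface ectoderm (0.21) and primitive blood (-0.10).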

How the data were processed

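Scanner output of the pair of arrays was used. The deposited intensity values are the mean brightness and median local background of each spot in Cy3 and Cy5, and they are not normalized, per the file headers. As deposited, the log10 ratio of Cy5 over Cy3 was corrected for background and dye by the scanner software, per the file headers, and served as an alternative. Agilent Feature Extraction is given as version 9.5.3 in the submitters' processing notes and as 7.5.1 in the file headers.

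Signals were corrected with normexp (limma 3.58.1, R 4.3.3, offset 50) and normalized by loess within each array. Control spots had weight 0, and uneven spots were left out (205 gene spots on replicate 1, 90 on replicate 2). Ratios were turned to mutant over wildtype. The brightest of a gene's probes well above background stood for it, among 41013 probes. Names were updated by accession and synonym through a RefSeq table of GRCm38.p6, and 14480 probes kept the files' name. The offset shrinks ratios of dim genes. Precision is limited by the number of arrays.

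The members, lists, size rule and alternatives were chosen with earlier results of these data known. Every member is named; from other lists, at most 4 genes past the size rule, or the largest ratios to make 2, are named. The list of other actin regulators is given by counts alone. Foxc1, Egfl7, Bmp4, Myl7, Myl2, Tnnt2, Ryr2, Myh3 and markers not well above background were added once their values had been seen. So were Mrtfa, Mrtfb, Myocd, Fos, Egr1, Egr2, Egr3, Junb, Krt8, Tbx6, Msgn1, Pax3 and Mesp2. In simulated dye-swapped arrays the steps called 100% of 24 bright probes changed 2-fold and of 27 changed 4-fold, and 0 of 40521 unchanged probes. Changes under 2-fold were not simulated, dim changed probes were not scored, and the size of the noise was set beforehand. The simulation thus checks the steps and says nothing of calls near 1.5-fold. Probe sequences were not used here, and the values of 1 gene of the other lists are not reported here.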

Additional observations from a re-analysis of the deposited data

How the results depend on the processing

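No paired analysis was possible because the arrays hold 1 group of ratios, both from the same comparison of pools. Against 60 lower genes over the whole array, 38 were lower without background subtraction, 91 with an offset of 16, 16 with median centring, 190 with the software's ratio, 7 at 2-fold and 196 at 1.3-fold, and 126 to 377 on single arrays. Against 55 higher genes, 27 were higher with median centring, 167 with the software's ratio, 20 at 2-fold and 140 at 1.3-fold, and 93 to 258 on single arrays. Of the actin, SRF and YAP genes, 2 were lower with median centring and 2 at 2-fold, 4 with the median over probes and 5 to 7 on single arrays, where 0 to 1 was higher; the 1 was the saturated Actg1. The median of the general actin genes was -0.21 with median centring. On single arrays the smooth muscle and muscle actin median ranged from -0.46 to -0.21, and that of the YAP and TEAD targets from -0.078 to 0.031. Choosing an unsaturated probe, an alternative added after seeing the data, left 5 lower. The mean ratio of 27 of the 39 measured genes kept its sign under all 9 settings run, single arrays included, and that of 12 did not, Actb, Actg1, Flna, Actn1, Vil2, Coro1c, Ctgf, Amotl2, Yap1, Tead1, Tead2 and Amotl1. The cause of these changes was not tested. Signal over background limits the dim genes, and saturation limits the cytoplasmic actins.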
